A study of Mus musculus with 2 samples.

Results

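The 8 genes described here are the Slit ligands *Slit1*, *Slit2* and *Slit3*, the Robo family receptors *Robo1*, *Robo2* and *Robo3*, the ligand *Ntn1* (netrin 1) and its receptor *Dcc*. They were chosen by name, as the rows with these symbols in the gene lists of 2 single-cell RNA libraries from the embryonic mouse forebrain. All 8 were found in both, among 28001 genes in the library of septal explants and 32286 in that of telencephalic vesicles.

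Slits are large secreted proteins that repel growing axons and migrating neurons by binding Robo receptors on the growth cone, where the signal runs through srGAP proteins and the cytoskeleton. Netrin 1 is a secreted, laminin-related protein that attracts axons through the transmembrane receptor Dcc and repels them where Unc5 receptors take part. In the forebrain both systems are known for guiding commissural and corticofugal axons at the midline and for their part in the migration of interneurons.

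Each library is 1 droplet sample of mouse tissue that the labels call wild-type, on the C57BL/6J background. The septal explants came from 12 embryos, of which 8 at E11.5 carried PGKCre and Rosa26YFP and 4 at E12.5 carried Dbx1Cre and Rosa26tdTomato. PGKCre recombines in all cells, and Dbx1Cre in cells that express *Dbx1*, a gene of several patterning centres, and in their progeny. The vesicles came from 3 embryos, E12 by the label, with no reporter allele. Embryos were pooled before capture and cannot be told apart within a library, so there is 1 sample per tissue, no test between tissues, and every interval given below is a 95% interval for counting error alone.

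The septal library held 5827 barcodes with a median of 12722 unique molecular identifiers (UMIs, 1 per captured transcript), and the vesicle library 14283 with a median of 8503. After filters on mitochondrial content and doublets, 5365 and 11595 cells were kept, which share no more than 1 barcode sequence, and fell into 31 and 30 clusters. The clusters were named from markers as apical progenitors (APs) of a region, basal progenitors (BPs) or neuron classes, with 130 and 979 cells left unnamed. The vesicle's unnamed cells had a median of 1065 UMIs. The members and the other genes of their pathway were kept out of the clustering. Neurons of the septal library that carried GABAergic markers, with 243 CPM (UMIs of the gene per 1000000 UMIs of those cells) of *Gad1*, had 1.23 CPM of the medial ganglionic eminence (MGE) marker *Lhx6*, against 201 in the MGE-like GABAergic neurons of the vesicle, so they are called GABAergic-like only. Their *Lhx8* stood at 80.6 CPM against 876, and their *Nkx2-1* at 44.3 against 305. MGE-like APs of the explants had 289 CPM of *Nkx2-1* beside 303 in those of the vesicle, but 3.95 of *Shh* beside 81.1. They also had 397 CPM of the septal marker *Fgf17*, beside 3.47 in the vesicle. Hem-like APs of the explants had 76.7 CPM of the hem marker *Wnt3a* beside 49.2 in the vesicle, but 566 of *Fgf17* beside 22.2. Septal glutamatergic-like neurons of the explants had 846 CPM of *Zic1* beside 312 in pallial glutamatergic-like neurons, but 442 of the pallial marker *Tbr1* beside 764. In the vesicle these values were 339 beside 33.1 and 186 beside 396. The paper describes septal-derived excitatory neurons as lacking *Tbr1*, and whether pallial-type neurons were among this class was not tested. A class of the same name need not hold the same cells in both libraries.

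The libraries stood apart in a way that touches every level below. Across 10539 protein-coding genes with at least 200 UMIs in each, the ratio of CPM in the vesicle to CPM in the explants was higher the longer the gene, from a median of 0.67 for genes spanning up to 5 kb to 12.3 for those over 500 kb. The members include some of the longest genes of the genome. *Robo3*, the shortest at 17.6 kb, had a ratio of 1.2, where genes of like span (within 1.25-fold) had a median of 0.855. *Slit1* (143 kb) stood at 3.56 beside a median of 3.26, *Slit2* (325 kb) at 9.44 beside 5.58, and *Robo2* (520 kb) at 12 beside 9.16. *Robo1* (738 kb) had 26.2 beside 16.4. The remaining 3 lay furthest above genes of their length, with *Ntn1* (191 kb) at 19.2 beside 3.87, *Slit3* (587 kb) at 45 beside 10 and *Dcc* (1097 kb) at 92.2 beside 12.1. *Slit1* and *Slit3* had 130 and 87 UMIs in the explants, under the minimum of 200 set for the genes beside them. Their ratios are thus not set against genes of like level. The tissue, the kit version and the read processing all differ between the libraries and cannot be told apart, so levels were compared within a library only.

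**Figure D1:**
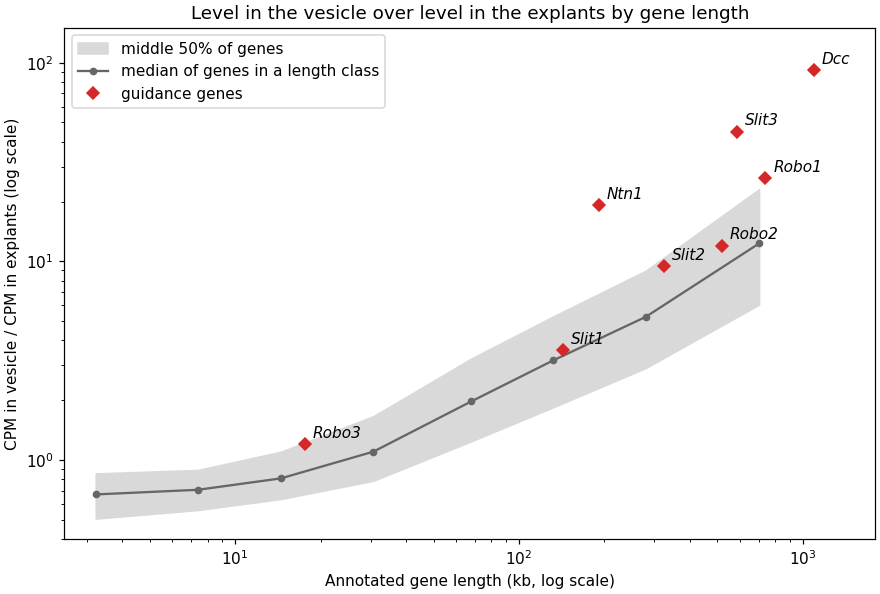
Ratio of CPM in the vesicle library to CPM in the septal library (log axis) against the annotated length of the gene in kb (log axis), with the median of all protein-coding genes in each length class as a line, the middle 50% of their values as a grey band and the 8 members as labelled points. The median climbs from 0.67 to 12.3, and *Dcc*, *Slit3* and *Ntn1* lie furthest above genes of like length. *Slit1* and *Slit3* had fewer UMIs in the explants than the minimum set for the genes of the medians.

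*Slit2* and *Robo3* are shown with the 100 bases that precede their annotated starts, because they ran in opposite directions in septal cells of the explants. There, in the values that follow, *Slit2* was higher in septal-like APs and *Robo3* in septal glutamatergic-like neurons. *Slit2* was not confined to APs, and over all APs and neurons its level differed by less than 2-fold in both libraries. *Slit2* (ENSMUSG00000031558) lies on chromosome 5 at 47983138 to 48307733, forward strand, and *Robo3* (ENSMUSG00000032128) on chromosome 9 at 37415669 to 37433246, reverse strand (GRCm38, GENCODE). The stretches, read 5′ to 3′ on the strand of the gene from RefSeq windows of GRCm38.p6, are chr5:47983038-47983137 and chr9:37433247-37433346. Capitals mark TATAAA in the first, and TAATTA, a core that many homeodomain factors bind, and CACCTG, the reverse complement of the E-box CAGGTG, in the second.
Slit2: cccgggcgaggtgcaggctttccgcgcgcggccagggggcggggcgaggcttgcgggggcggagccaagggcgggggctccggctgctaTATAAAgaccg
Robo3: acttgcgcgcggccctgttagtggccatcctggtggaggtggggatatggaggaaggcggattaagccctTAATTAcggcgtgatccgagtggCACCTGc

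The TATAAA of *Slit2* begins 28 bases before its RefSeq start, in a window with 69.6% G and C, where the median window has 52.4%. The TAATTA and CACCTG of *Robo3* begin 101 and 78 bases before its RefSeq start. The RefSeq starts, 47983155 for *Slit2* and 37433175 for *Robo3*, lie inside the GENCODE spans given above. Distances from the GENCODE starts, at which the printed stretches end, are thus shorter. Over all 32851 RefSeq windows, searched on both strands in the 250 bases before the start, TATAAA was present in 12.4%, TAATTA in 4.84%, CAGGTG in 17.2%, CAGCTG in 13% and CAGATG in 14.4%. Of the other members, *Robo1* had CAGGTG and 1 of the windows of *Robo2* had CAGCTG, and *Slit3*, with 78.8% G and C, had none of these motifs. None of the 5 motifs overlaps another by its letters in the printed stretches, and a match is a description of the sequence, not a bound site. *Slit1* (chromosome 19, 41600257 to 41743665, reverse), *Slit3* (chromosome 11, 35121224 to 35708507, forward), *Robo1* (chromosome 16, 72308306 to 73046095, forward), *Robo2* (chromosome 16, 73891839 to 74411825, reverse) and *Ntn1* (chromosome 11, 68209364 to 68400823, reverse) are placed on the same build. RefSeq windows of *Robo2* at 75092721 to 75093020 and 75447244 to 75447543 lie beyond this span. The length of 520 kb used for *Robo2* above may thus be too short. *Slit2* and *Slit3* each host a copy of miR-218, *Mir218-1* and *Mir218-2*, and share their strand with 6 and 3 annotated genes in all, whose reads cannot always be told apart from those of the host.

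Of the ligands, *Slit2* was foremost a gene of medial and ventral APs. In the septal library its level was highest in septal-like APs, at 93.7 CPM [87.4–100.3], with a UMI in 407 of 622 cells, or 65.4% [61.5–69.2, Clopper-Pearson]. MGE-like APs followed at 72.2 [65.6–79.3] and hem-like APs, the progenitors at the medial edge of the pallium, at 60.6 [52.3–69.9]. These intervals overlap each other but not that of the septal-like APs. All the remaining classes lay lower, from 38.3 CPM in septal glutamatergic-like neurons down to 10.5 in pallial glutamatergic-like neurons and 10.0 in APs without a region, with pallial-like APs at 17.2 and subpallial-like APs outside the MGE at 15.6.

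AP classes of the same 3 names led in the vesicle, in another order, with the limits on the MGE-like and hem-like names given above. MGE-like APs had 680.0 CPM [668–692] of *Slit2*, with a UMI in 919 of 1130 cells, or 81.3% [78.9–83.6], hem-like APs 595 [585–605] and septal-like APs 449 [441–457]. No neighbours among these 3 overlap. Subpallial-like APs outside the MGE stood at 80.4 and ventral pallium-like (VP) APs at 62.9, below every neuron class and BPs, of which septal glutamatergic-like neurons were highest at 292 [263–324]. Erythroid-like cells of the vesicle, which are not known to use these genes and carry the RNA free in the droplets, had *Slit2* in 3.53% of 397 cells at a median of 5400 UMIs, against a median of 10777.5 in MGE-like APs. With each cell thinned to 3500 UMIs these shares became 2.26% and 60.3%. The explants had 26 erythroid-like cells, too few for such a reference.

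Within these regions *Slit2* was uneven. Among septal-like APs of the vesicle, the cluster led by *Fgf17*, *Fgf8* and *Fgf18*, signals of the rostral patterning centre, had 964 CPM [943–985] in 449 cells, and the other cluster 204 [197–211] in 535 cells. In the explants all 3 septal-like AP clusters had *Fgf8* and *Fgf18* among their leading genes, and one, with *Six6*, had 147 CPM [133–163] of *Slit2* against 71.2 and 74.0 in the others. Among MGE-like APs of the vesicle, 257 cells led by *Cdh19*, *Shh*, *Tal2* and *Lrp2* had 1775 CPM [1731–1819.7] and 41 cells led by *Nkx6-2* and *Hhip* had 1530.2, while 832 cells with *Olig2*, *Tal2* and *Nkx2-1* among their leading genes had 324 [315–334]. In the explants, too, the MGE-like cluster led by *Nkx2-1*, *Wnt1*, *Tal2* and *Lrp2*, with 71 cells, was the higher at 159.9 [138–185], against 51.9 in the other 389 cells.

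*Slit3* was, among neural classes, highest in hem-like APs, mainly in clusters with the choroid plexus gene *Ttr* among their leading genes. In the vesicle hem-like APs had 187 CPM [182–193] and a UMI in 572 of 1114 cells, or 51.3% [48.4–54.3], against 0.756% of erythroid-like cells. Septal-like APs came next among neural cells at 47.2 CPM [44.6–50], and no other neural class exceeded 35.1. Mesenchyme-like cells around the brain had more, 286 CPM [274–299]. The hem-like cluster led by the choroid plexus gene *Ttr* with *Wnt3a* and *Lmx1a* held nearly all of it, at 285 CPM [277–294] in 670 cells, against 24.6 [21.4–28.2] in the other 444. In the explants *Slit3* was close to the limit of detection, with 21 UMIs in hem-like APs, or 6.74 CPM [4.17–10.3], and a UMI in 19 of 205 cells. That was still the highest class there, followed by septal-like APs at 2.17 [1.31–3.39]. The hem-like cluster with *Rspo2*, *Wnt3a* and *Ttr* among its leading genes had 10.4 CPM [6.44–15.9] in 133 cells. The other 72 hem-like APs had 0.0 [0.0–3.36].

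*Slit1* was highest in neurons, unlike the other ligands. In the explants Cajal-Retzius-like neurons, early neurons of the cortical surface, had 11.7 CPM [7.86–16.9] and a UMI in 20 of 207 cells, or 9.66% [6.00–14.5]. Differentiating subpallial-like cells followed at 7.09 and septal glutamatergic-like neurons at 6.33, within overlapping intervals. Every AP class had 0.685 CPM or less, and in APs without a region none of 520 cells had a UMI, so that the share could be up to 0.577%. In the vesicle classes of the same 3 names led, with 64.8 CPM [51.3–80.8] in septal glutamatergic-like neurons, 47.9 [36.5–61.6] in Cajal-Retzius-like neurons and 35.6 [30.7–41.1] in differentiating subpallial-like cells. The vesicle's septal glutamatergic-like class was 1 cluster of 144 cells with *Otp*, *Onecut3* and *Onecut1* among its leading genes. It had 8.21 CPM of *Dbx1*, against 83.8 in the explants' class of that name, so the 2 may differ in make-up. The explants' Cajal-Retzius-like class was 2 clusters, with 14.6 CPM [9.61–21.2] of *Slit1* in 151 cells and 3.23 [0.392–11.7] in 56. That of the vesicle was 1 cluster with *Mcidas*, *Ccno* and *Shisa8* among its leading genes, as had the smaller cluster of the explants. MGE-like GABAergic neurons had 2.54 CPM [0.693–6.51], which overlaps the APs, whose levels ranged from 2.25 to 5.19.

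*Ntn1* was highest in APs of the subpallium. In the vesicle subpallial-like APs had 218 CPM [210.2–226] and a UMI in 655 of 848 cells, or 77.2% [74.3–80.0], beside 4 of 397 erythroid-like cells. MGE-like APs had 163 [157–169], APs without a region 143 [137–148], VP-like APs 69.5 [65.1–74.1] and septal-like APs 44.8 [42.3–47.5], each below the one before by more than counting error. Pallial-like APs had 19.5 and hem-like APs 4.63. In the explants the order began with MGE-like APs, 11.52 CPM [8.98–14.5], and subpallial-like APs, 9.53 CPM, whose intervals overlap, followed by differentiating subpallial-like cells at 4.83 and septal-like APs at 4.34. Pallial-like APs had 0.389 CPM [0.143–0.847], and the 135 GABAergic-like neurons had no UMI, so that their level could be up to 1.85 CPM.

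**Figure D2:**
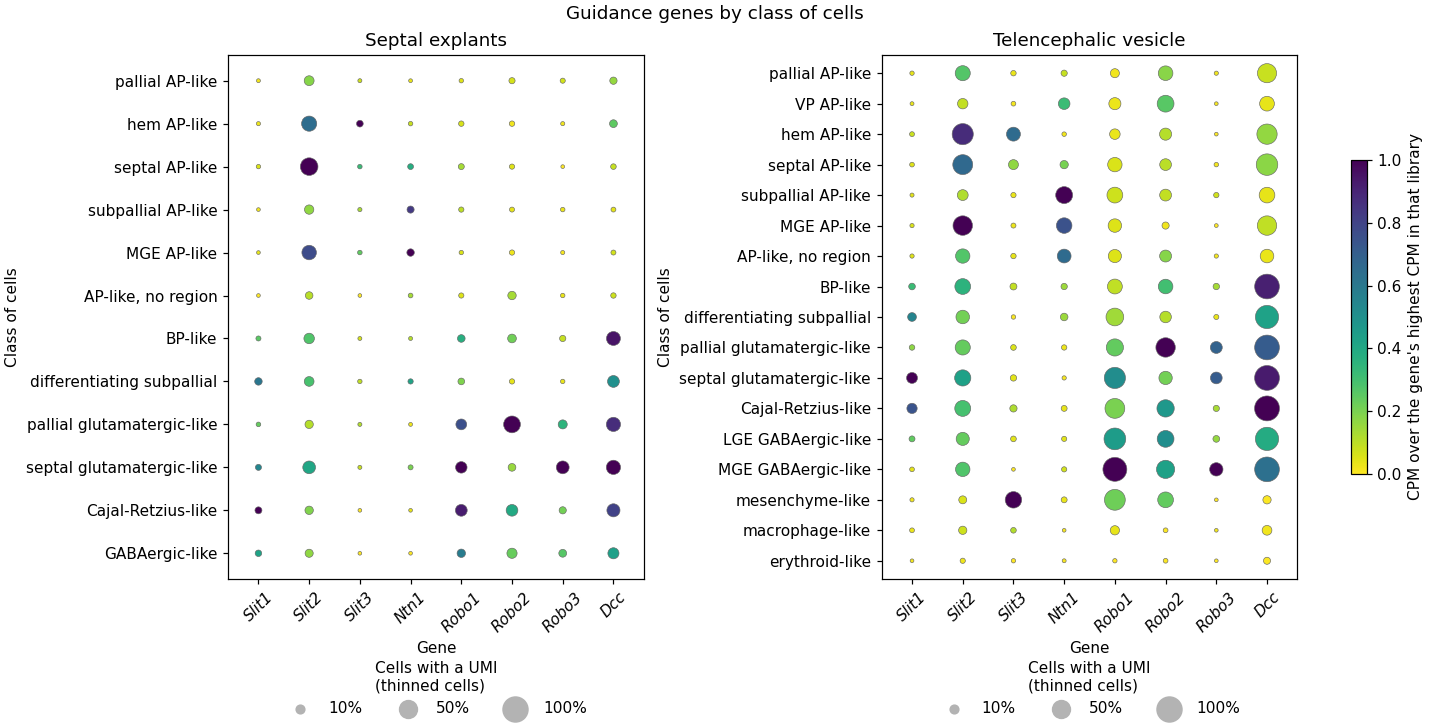
Class of cells (rows) by member (columns), in the septal library at left and the vesicle library at right. The colour of a dot is the CPM of the class divided by the member's highest CPM in that library, from 0 to 1, and its area grows with the percent of thinned cells that had a UMI. *Slit2* and *Ntn1* are darkest in AP classes, *Slit3* in hem-like APs and mesenchyme-like cells, *Slit1* and the Robo receptors in neuron classes and *Dcc* in neurons and BPs.

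The Robo receptors were highest in neurons, and *Dcc* in neurons and BPs. *Robo1*, a Slit receptor of many migrating neurons, reached 2395 CPM [2319–2473] in MGE-like GABAergic neurons of the vesicle, with a UMI in 221 of 231 cells, or 95.7% [92.2–97.9], against 2.02% of erythroid-like cells. Septal glutamatergic-like neurons had 1232 [1171–1296], lateral ganglionic eminence (LGE)-like GABAergic neurons 1081 [1045–1117] and pallial glutamatergic-like neurons 578 [557–599]. None of these neighbours overlap. Pallial glutamatergic-like neurons were of 2 kinds, 327 cells led by *Nxph1*, *Arpp21* and *Cck* with 970.3 CPM [933–1009] and 330 cells led by *Slc17a7*, *Nxph4* and *Cntn2* with 176 [159.9–193]. LGE-like GABAergic neurons, too, were uneven. Their 272 cells led by *Mgat4c*, *Kctd16* and *Tac1* had 1373 CPM [1324–1423]. The 160 cells with *Dlx6os1*, *Sp9* and *Isl1* among their leading genes had 456 [415–499]. Mesenchyme-like cells also had *Robo1*, at 528 CPM. In the explants septal glutamatergic-like neurons had 31.7 CPM [26.0–38.2], with a UMI in 26.6% [21.8–31.9] of 308 cells, Cajal-Retzius-like neurons 29.2, pallial glutamatergic-like neurons 24.1 and GABAergic-like neurons 18.5. Each overlaps its neighbour, and AP classes lay between 1.56 and 4.23.

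*Robo2*, the other main Slit receptor, was foremost a gene of pallial glutamatergic-like neurons in both libraries. The explants had 82.5 CPM [75.6–89.8] in this class, with a UMI in 293 of 513 cells, or 57.1% [52.7–61.4], well above Cajal-Retzius-like neurons at 32.8 [26.0–40.8] and septal glutamatergic-like neurons at 12.7 [9.20–17.0]. In the vesicle it had 922 CPM [896–948] and a UMI in 434 of 657 cells, or 66.1% [62.3–69.7], beside 2.27% of erythroid-like cells. LGE-like GABAergic neurons (471), Cajal-Retzius-like neurons (431) and MGE-like GABAergic neurons (395) followed, each overlapping the next. *Robo2* also varied between regions of APs in the vesicle, from 241 CPM [233–249.7] in VP-like APs through 165 in pallial-like and 84.3 in subpallial-like APs to 20.7 [18.6–23.0] in MGE-like APs.

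*Robo3*, a divergent family member needed for hindbrain and spinal axons to cross the midline, was the receptor with the narrowest range of classes. In the explants septal glutamatergic-like neurons had 49.2 CPM [42.1–57.2] and a UMI in 87 of 308 cells, or 28.2% [23.3–33.6], with pallial glutamatergic-like neurons next at 17.3 [14.2–20.8]. Septal-like APs, by contrast, had 1 UMI in 622 cells, or 0.114 CPM. The 2 clusters of septal glutamatergic-like neurons differed in all Robo genes. The 140 cells led by *Gng8*, *Spon1* and *Tac1* had 79.1 CPM [66.7–93.1] of *Robo3*, 23.1 [16.6–31.2] of *Robo2* and 18.1 [12.48–25.5] of *Robo1*. The 168 cells led by *Onecut2*, *Shox2* and *Isl1* had 16.3 [10.8–23.8] of *Robo3*, 1.21 of *Robo2* and 46.6 [36.8–58.2] of *Robo1*, so that *Robo3* and *Robo2* were higher in the first cluster and *Robo1* in the second.

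In the vesicle *Robo3* was highest in MGE-like GABAergic neurons, at 115 CPM [98.9–133] and in 38.1% [31.8–44.7] of cells. Septal glutamatergic-like neurons had 82.1 [66.8–99.8] and pallial glutamatergic-like neurons 79.1 [71.7–87.1], and LGE-like GABAergic neurons came next, lower, at 18.3 [13.9–23.6]. None of 397 erythroid-like cells had a UMI, so that their share could be up to 0.756%. Among APs the subpallial-like ones were highest at 8.39 CPM [6.91–10.1], while MGE-like APs had 0.294.

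*Dcc*, the netrin receptor, was highest in neurons and BPs. In the vesicle it reached 7917 CPM [7762–8074] in Cajal-Retzius-like neurons, all 174 of which had a UMI, 7357 [7206–7511] in septal glutamatergic-like neurons and 7213 [7146–7282] in BPs, with a UMI in 607 of 613 BPs, or 99.0% [97.9–99.6], and a mean of 71.6 UMIs per BP that had any. Erythroid-like cells had 47.4 CPM and a UMI in 9.32% [6.65–12.6] of cells, so a lone *Dcc* UMI in this library is near background. BPs led by *Optc*, *Ebf2*, *Neurog1* and *Eomes* had 11400.3 CPM [11246–11556] in 216 cells, and those led by *Neurod4*, *Dbx1* and *Neurog2* had 5375 in 397 cells. AP classes with a region ranged from 291 CPM in subpallial-like to 1391 [1377–1406] in septal-like APs, above the erythroid-like cells throughout. In the explants *Dcc* stood at 49.5 CPM [42.4–57.5] in septal glutamatergic-like neurons, 46.9 [40.8–53.5] in BPs, 43.3 in pallial glutamatergic-like and 39.7 in Cajal-Retzius-like neurons, which all overlap, and was in 145 of 364 BPs, or 39.8% [34.8–45.1]. Subpallial-like APs were lowest in the explants as well, at 2.01.

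Neurons were next compared with APs, by summing UMIs over all cells of the neuron classes (1163 in the explants, 1638 in the vesicle) and of the AP classes (3347 and 6785). Genes were included from 50 UMIs over both sides, and counted as higher or lower when the CPM differed at least 2-fold. In the explants 5 of the 8 members were higher in neurons, where 17.6% of 12767 genes were, and 2 were lower, where 17.0% were. *Slit1* stood at 5.48 against 0.320 CPM, a ratio of 17.1 [10.0–30.9], *Robo3* at 13.7 [10.9–17.5], *Robo1* at 10.9 [8.88–13.4], *Robo2* at 9.93 [8.61–11.49] and *Dcc* at 8.17 [7.06–9.47]. All 4 receptors and 1 ligand were thus on the neuronal side. *Ntn1* was lower in neurons, 0.783 against 4.50 CPM and a ratio of 0.174 [0.0858–0.317], as was *Slit3* at 0.390 [0.151–0.847], which did not pass 2-fold with doublets kept or with all barcodes, while *Slit2* at 0.518 [0.454–0.588] just missed the 2-fold limit.

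The vesicle gave the same division. There 5 of 8 members were higher in neurons, beside 16.9% of 15946 genes, and 2 were lower, beside 20.9%. *Robo3* had the largest ratio, 27.9 [24.4–32.0], followed by *Robo1* at 9.24 [9.02–9.47], *Dcc* at 6.67 [6.61–6.74], *Slit1* at 6.11 [5.21–7.15] and *Robo2* at 5.05 [4.92–5.19]. *Ntn1* at 0.102 [0.0831–0.123] and *Slit3* at 0.319 [0.274–0.369] were lower, and *Slit2* again fell just short at 0.525 [0.503–0.547]. The median log2 ratio of the 8 members was 3.17 in the explants and 2.47 in the vesicle, where all genes had 0.04 and −0.1.

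The second comparison set subpallial-like APs, those of the MGE included, against pallial-like APs, those of the VP included. No cluster of the explants was named VP-like, so the pallial side held pallial-like APs alone there. In the vesicle it also held 783 VP-like APs, so the sides are not alike between libraries. In the explants (1142 and 858 cells) 6 members had enough UMIs, of which 2 were higher in the subpallium, beside 4.51% of 11322 genes, and 2 lower, beside 2.77%. *Ntn1* was the most unequal, at 10.2 against 0.389 CPM and a ratio of 26.3 [11.8–72.5], and *Slit2* was 2.05-fold higher [1.77–2.37], a log2 ratio of 1.03 that became 0.9 with doublets kept and 0.55 at a coarser resolution. The higher *Slit2* level lay in MGE-like APs, at 72.2 CPM. Subpallial-like APs outside the MGE had 15.6, beside 17.2 in pallial-like APs. *Dcc* was lower in the subpallium at 0.313 [0.215–0.446] and *Robo3* at 0.355 [0.203–0.6], while *Robo1* at 1.72 [1.03–2.95] and *Robo2* at 0.532 [0.365–0.768] stayed within 2-fold. *Robo3* was uneven among pallial-like clusters, at 7.06 CPM [4.92–9.82] in 312 cells, against 1.31 [0.564–2.57] and 2.08 [0.95–3.94] in the others. These lower values overlap those of the subpallial-like clusters outside the MGE, at 0.92, 1.38 and 2.26. *Slit1* and *Slit3* had too few UMIs, 10 and 28 in all.

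In the vesicle (1978 and 1614 cells) all 8 members had enough UMIs. *Ntn1* at 4.97 [4.68–5.27], *Slit2* at 3.00 [2.90–3.1] and *Robo1* at 2.69 [2.56–2.84] were higher in the subpallium, 3 of 8 members beside 5.14% of 13964 genes. *Robo2* alone was lower, at 48.7 against 193 CPM and a ratio of 0.252 [0.238–0.267], 1 of 8 beside 3.22%. This ratio depended on where clusters divided the APs, with a log2 value of −1.99 that became −0.79 when cell cycle genes took part in the clustering and −2.72 at a finer resolution, and the log2 ratio of *Ntn1*, 2.31, became 1.42 under another random seed. *Dcc* did not follow its value in the explants, with 551 CPM in the subpallium and 533 in the pallium, a ratio of 1.04 [1.014–1.06]. Nor did *Robo3*, at 3.85 against 1.94 CPM and 1.98 [1.47–2.70], although its log2 ratio of 0.99 became −1.17 at the finer resolution. For *Dcc*, the vesicle's pallial side joined 667 CPM in pallial-like and 298 in VP-like APs. Its subpallial side joined 755 in MGE-like and 291 in the other subpallial-like APs. For *Slit2*, the subpallial side joined 680.0 CPM in MGE-like and 80.4 in the other subpallial-like APs. The latter thus lay below the 139 CPM of the pallial side, which joined 183 in pallial-like and 62.9 in VP-like APs. The members' median log2 ratio was −0.06 in the explants and 0.76 in the vesicle, beside 0.01 and 0.02 for all genes.

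The third comparison set GABAergic-like against pallial glutamatergic-like neurons. In the explants (135 and 513 cells) none of 5 members with enough UMIs was higher in GABAergic-like neurons, beside 3.27% of 8879 genes, and 2 were lower, beside 6.6%. These were *Robo2*, at 19.1 against 82.5 CPM and a ratio of 0.231 [0.156–0.332], and *Dcc* at 0.498 [0.340–0.709]. *Dcc* no longer passed 2-fold with all barcodes, at the finer resolution, with another seed or with thinned cells, where its log2 ratio of −1.01 lay between −0.64 and −0.93. *Robo1* stood at 0.766 [0.5–1.14], an interval that holds equality. In the vesicle (663 and 657 cells) *Robo1* was the 1 member of 8 that was higher in GABAergic neurons, at 1511 against 578 CPM and a ratio of 2.62 [2.51–2.73], beside 4.94% of 10577 genes. *Robo2* was the 1 that was lower, at 0.484 [0.459–0.509], beside 4.73%. It lay close to the 2-fold limit and did not pass it with doublets kept, with another seed or with cell cycle genes in the clustering, where its log2 ratio of −1.05 became −0.83, −0.92 and −0.56. *Dcc* at 0.658 [0.646–0.671] and *Robo3* at 0.632 [0.537–0.743] leaned to the pallial neurons by less than 2-fold. The log2 ratio of *Robo1*, 1.39, ranged up to 3.1 at a coarser resolution, and the 2 clusters of pallial neurons differ in *Robo1* as given above. So do the 2 LGE-like clusters, of which the lower, at 456 CPM, lay below the 578 of the pallial side. The higher *Robo1* level thus did not hold for every GABAergic cluster. The members' median log2 ratio was −0.42 and −0.28, beside 0.01 and 0.06 for all genes.

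**Figure D3:**
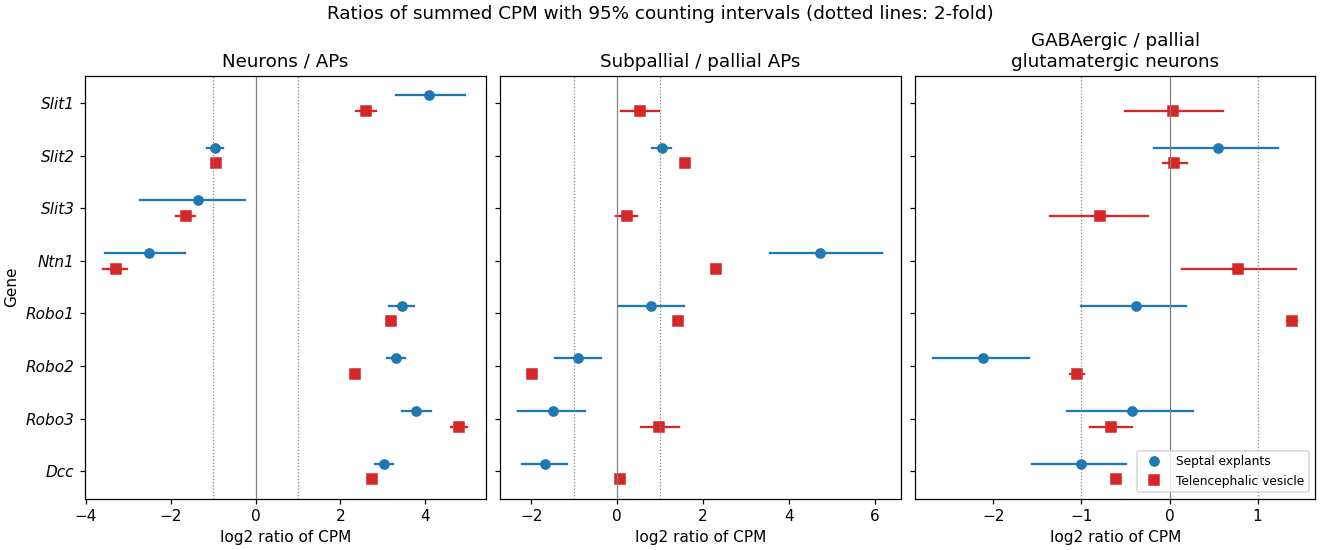
Log2 ratio of CPM for the members in the 3 comparisons, 1 panel each, with the septal library as blue circles and the vesicle library as red squares. Bars are exact 95% intervals for counting error, dotted lines mark a 2-fold difference, and members with under 50 UMIs in a comparison have no point. All 4 receptors and *Slit1* lie above 2-fold in neurons in both libraries, and *Ntn1* lies above 2-fold in subpallial APs in both.

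Cells of each lineage were then ordered along differentiation by the balance of 11 neuronal against 9 AP genes, none of them a member, and divided into 10 bins of equal size. BPs were placed in the pallial lineage, and the septal lineage runs from septal-like APs directly to septal glutamatergic-like neurons. *Dcc* went up before *Robo2* and *Robo3* in the pallial lineage of the vesicle. *Dcc* went from 212 CPM in the first bin to 1424 in the sixth and 7830.2 [7727–7934] in the seventh, where 3.12% of cells belonged to a neuron class, reached 8589.6 [8468–8712] in the eighth and was lower again in the last, at 4818 [4729–4908]. *Robo2* was still at 242 CPM [224–261] in the seventh bin and went to 718 [683–754] in the eighth and 959 [919.6–1000.1] in the last. *Robo3* went from 9.25 [6.04–13.6] to 58.3 [48.7–69.2] at the same step. *Robo1* went from 65.4 CPM [59.3–71.9] in the sixth bin to 221 [204–239] in the seventh. Most of its rise came later than that of *Dcc*, and it was highest in the last bin at 900.2 [862–939.8].

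In the pallial lineage of the explants, too, *Dcc* was ahead of *Robo2*. *Dcc* went from 13.7 CPM [9.77–18.8] in the fifth bin to 38.3 [30.6–47.5] in the sixth, with 4.05% of cells in a neuron class, and ended at 34.4 [27.3–42.7] after 52.6 in the eighth. *Robo2* stood at 10.0 [6.29–15.2] in the sixth bin, 40.1 [32.0–49.7] in the seventh and 78.7 [66.9–91.8] in the eighth, and stayed near that level. *Robo1* went from 5.48 CPM [2.83–9.57] in the sixth bin to 17.7 [12.4–24.4] in the seventh and 31.9 [25.1–39.9] in the last. In both libraries the largest step in *Dcc* came 1 bin or more before that in *Robo2*.

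In the septal lineage of the explants *Slit2* and *Robo3* ran in opposite directions. *Slit2* had 129 CPM [110.3–151] in the first bin, 86.0 [69.0–106] in the seventh, and 26.0 [17.4–37.4] and 27.1 [18.3–38.7] in the last 2. *Robo3* had no UMI in the second to sixth bins, 1.95 CPM [0.237–7.06] in the seventh, where 31.2% of cells were neurons, then 42.7 [30.7–58.0] in the eighth and 61.5 [47.7–77.9] in the last. *Dcc* was earlier here too, at 24.4 [15.8–36.1] in the seventh bin, and *Robo1* went from 41.7 [29.8–56.8] in the eighth to 19.0 [11.7–29.0] in the last. In the vesicle's septal lineage *Slit2* had 674 CPM [639–709.7] in the eighth bin and 278 [246–312] in the last. *Robo1* there went from 272 [244–302] to 1362 [1290.5–1436] in the final step. That lineage held 984 septal-like APs and 144 neurons, against 622 and 308 in the explants. Its bins thus turn from APs to neurons later, and a bin of the same number is not the same stage in both libraries.

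In the subpallial lineage of the vesicle *Ntn1* went down and *Robo1* up. *Ntn1* was at 213 CPM [202–226] in bins 3 and 4, 159 in the sixth, 74.3 [65.2–84.3] in the seventh and 17.7 [12.9–23.6] in the eighth. *Robo1* went from 231 [215–249] in the seventh bin to 465, 871 and finally 2059 [2004–2116]. *Dcc* lay between these in order, at 2311 [2259–2364] in the seventh bin, 4689 [4599–4780] in the ninth and 3266 [3196–3337] in the last.

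**Figure D4:**
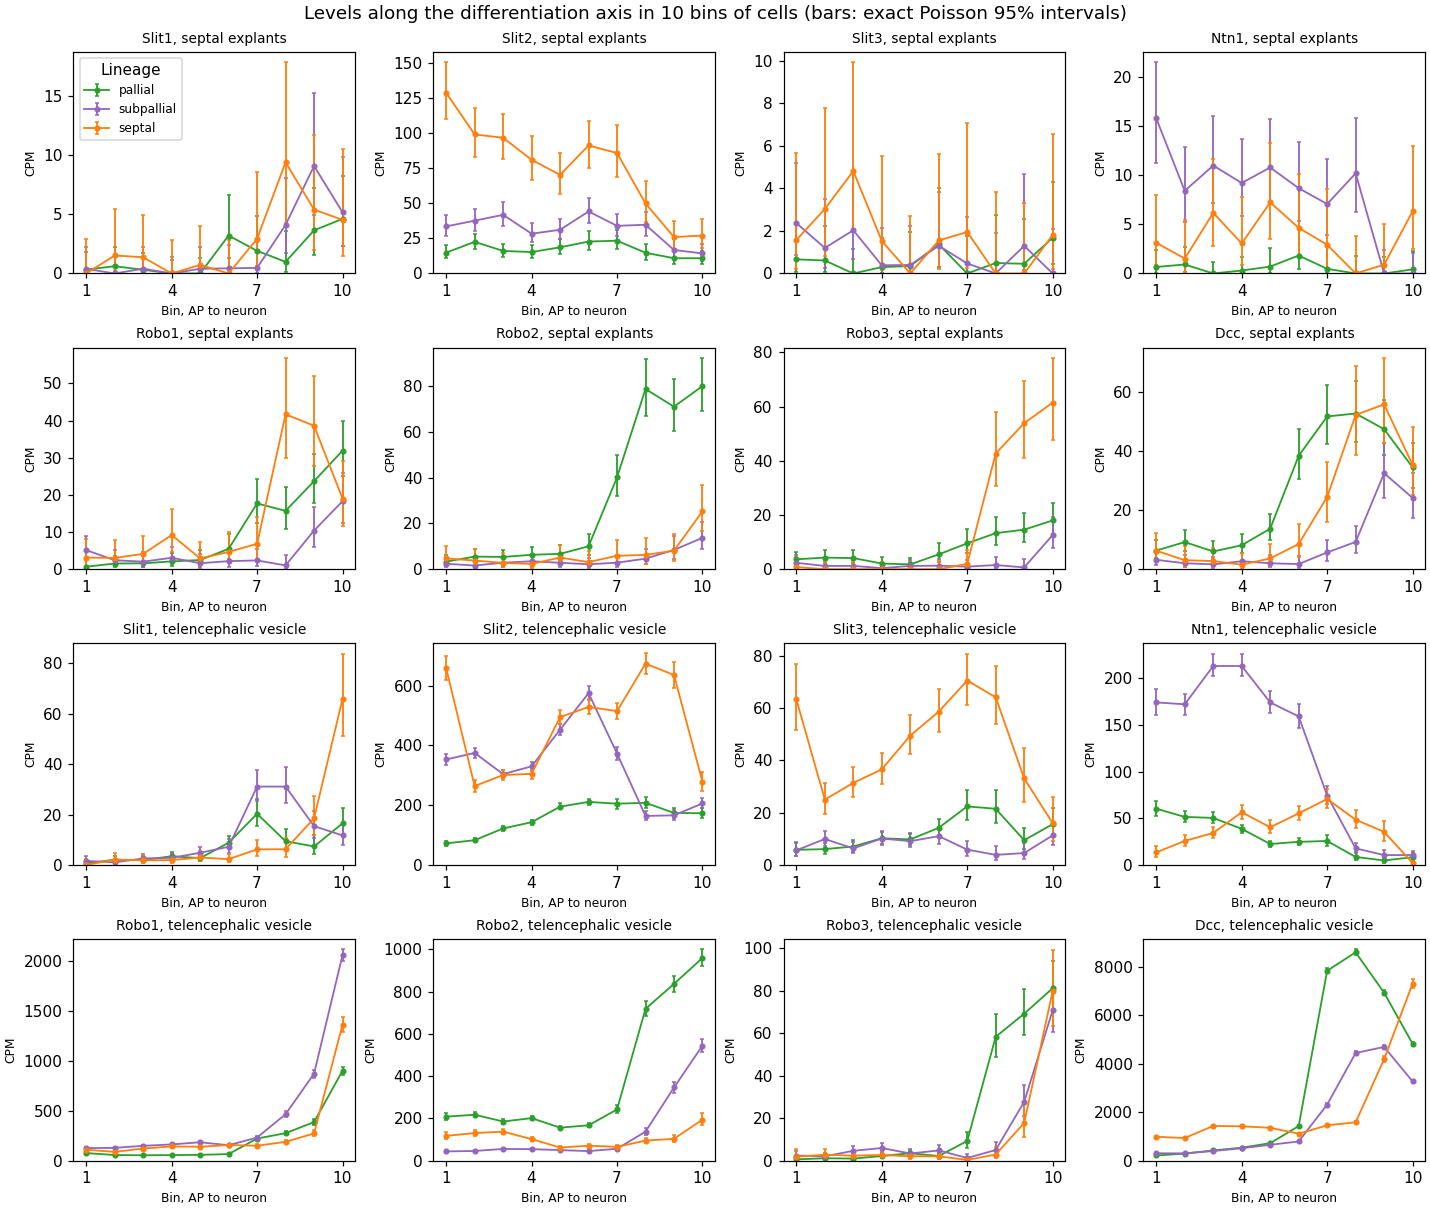
Level in CPM (linear axis, its own scale in each panel) over 10 equal bins of cells ordered from AP to neuron, with 1 panel per member and library and 1 line per lineage, pallial in green, subpallial in purple and septal in orange. Bars are exact Poisson 95% intervals. *Dcc* goes up before *Robo2* in the pallial lineage of both libraries, and before *Robo3* in that of the vesicle. *Ntn1* goes down in the subpallial lineage, and in the septal lineage of the explants *Slit2* is lower in the bins where *Robo3* is high.

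To see how receptors combine in single cells, each cell was thinned to the same number of UMIs, 8000 in the explants and 3500 in the vesicle, leaving out 510 and 1139 shallower cells. A receptor was counted when it had a UMI. In the vesicle 51.8% of MGE-like GABAergic neurons held 3 of the 4 receptors *Robo1*, *Robo2*, *Robo3* and *Dcc*, and 11.1% all 4. Pallial glutamatergic-like neurons held 2 in 38.2%, 3 in 33.9% and 4 in 6.63% of cells. BPs most often held 1 receptor, in 45.9%, and APs held none in 29.0% and 1 in 45.4%. Of 354 erythroid-like cells, the free RNA reference, 92.9% held none, 6.21% held 1 and 0.565% held 2. In the explants, with lower levels, 28.5% of pallial glutamatergic-like neurons showed no receptor, 43.2% showed 1 and 25% showed 2, while 57.0% of GABAergic-like neurons and 89.9% of APs showed none. These shares depend on the depth to which cells were thinned and were not compared between libraries.

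**Figure D5:**
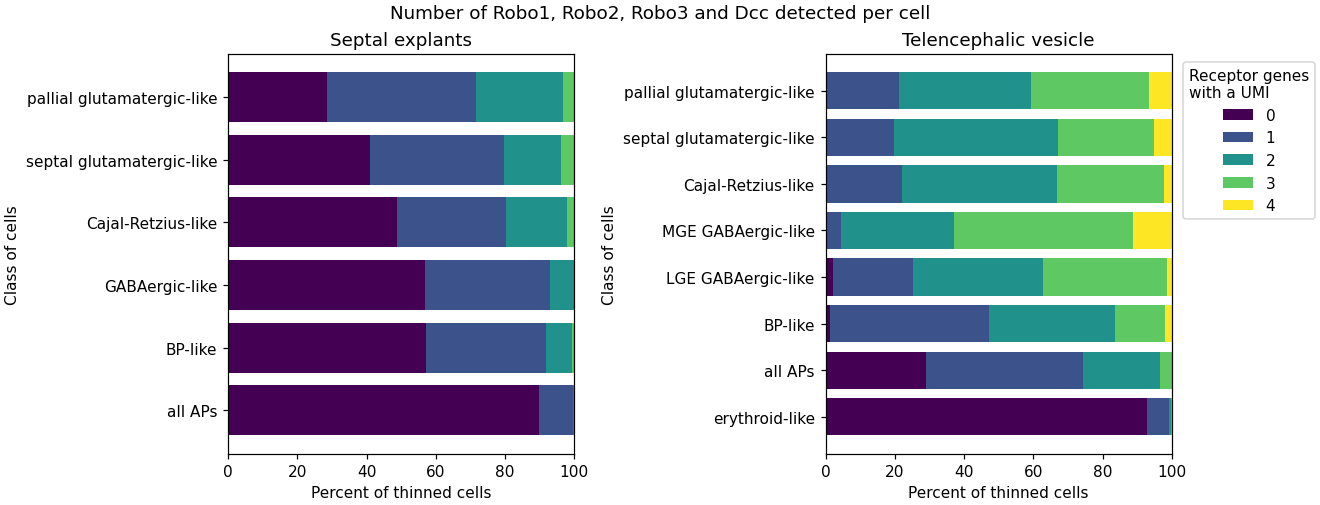
Percent of cells (axis from 0 to 100) that held 0, 1, 2, 3 or 4 of the receptors *Robo1*, *Robo2*, *Robo3* and *Dcc* after thinning to 8000 UMIs (septal library) or 3500 UMIs (vesicle library), by class. In the vesicle 51.8% of MGE-like GABAergic neurons held 3 receptors, and in the explants 89.9% of APs held none. Erythroid-like cells of the vesicle are the free RNA reference, with none in 92.9%.

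Within clusters, members were found together about as often as their separate shares give. Of the 28 pairs of members, 13 in neurons of the explants and 25 in neurons of the vesicle had an expected number of at least 5 cells. The 95% interval of observed over expected cells held 1 for each of these pairs, with ratios from 0.475 to 1.2 and from 0.529 to 1.27. Pairs with *Dcc* in neurons of the vesicle cannot speak to this, because nearly all of these neurons held *Dcc*. Among neurons with *Robo1*, for example, 971 held *Dcc* and 60 did not. Their joint numbers could hardly differ from the expected ones. *Robo1* and *Robo2*, for instance, were together in 565 neurons of the vesicle where 524 were expected, a ratio of 1.08 [0.990–1.17]. In APs the interval held 1 for all 6 pairs of the explants and for 23 of 26 pairs of the vesicle. The others were *Slit1* with *Slit3*, at 0.231 [0.0279–0.834] from 2 cells, *Slit2* with *Dcc*, at a ratio of 1.06 whose lower bound lay just above 1, and *Robo1* with *Dcc*, at 1.09 [1.02–1.16]. Over all 9499 neural cells of the vesicle, *Robo1* with *Robo2* had 1.08 [1.02–1.15], an interval above 1. *Slit2* with *Robo1*, at 1.06 [1.01–1.12], and *Slit2* with *Dcc*, at 1.05 [1.01–1.09], lay above 1 too. *Slit1* with *Slit3*, at 0.478 [0.192–0.985], lay below 1. The intervals were not adjusted for the number of pairs.

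The genes whose level across clusters was most like that of each member were taken by Pearson's r of log2(CPM + 1) over the 31 clusters of the explants or 30 of the vesicle, among genes with at least 200 UMIs. All clusters of a library share its depth and free RNA, and r is given as a description. In the explants *Slit2* was nearest *Spry1*, an inhibitor of Fgf signalling (r = 0.86), then *Stpg1* (0.82) and *Cldn3* (0.81), and *Ntn1* was nearest the ventral progenitor factor *Olig2* (0.92), then *Tfdp2* (0.85) and *Adgrv1* (0.84). *Robo2* lay with *Fstl5* (0.84), *Dubr* (0.82) and *Bcl11a* (0.81), and *Robo3* with *Map1b*, *Klc1* and *Rufy3* (0.89 each), of which *Map1b* and *Klc1* act on microtubules. *Robo1* lay with *Atp6v0b* (0.92), *Wdr47* (0.91) and *Them4* (0.9), and *Dcc* with *Zfp513*, *Shf* and *Fbrsl1* (0.91 each). *Slit1* and *Slit3* had under 200 UMIs there.

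In the vesicle *Dcc* was nearest *Map2* (r = 0.93), *Lzts1* and *Elavl4* (0.92 each), and *Robo3* nearest *Chrnb2*, *Nyap2* (0.91 each) and *Slc7a14* (0.9). *Robo1* lay with *4930402H24Rik* (0.9), *Cyth1* and *Rnf24* (0.87 each), *Robo2* with *Thsd7b* (0.88), *Aff3* and *Ap1ar* (0.87 each), and *Ntn1* with *Chrna7* (0.9) and *Plce1* (0.85). Among the Slits, *Slit1* lay with *Gm20501* (0.89), *Gm12224* (0.86) and *Lurap1l* (0.85), *Slit3* with *Tmem132c* (0.85), *Loxl1* (0.84) and *Plxdc2* (0.82), and *Slit2* less closely with *Erbb4* and *Sec22a* (0.72 each). No gene was among the nearest 3 of the same member in both libraries.

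The wider pathway was taken as a list of 32 further ligands, receptors and intracellular effectors of Robo and Dcc signalling. In the explants 29 had enough UMIs to compare neurons with APs, of which 7 were higher in neurons, 4 lower and 18 neither, with a median log2 ratio of 0.27, where 17.6% of all genes were higher and 17.0% lower. In the vesicle 30 did, with 8 higher, 5 lower and 17 neither, and a median of 0.06, where 16.9% of all genes were higher and 20.9% lower. By role, 4 of 10 receptors were higher in the explants and 5 of 10 in the vesicle. The netrin-binding adhesion molecule *Dscam* had the highest ratio in both, 21.4 [12–40.9] and 32.0 [29.0–35.4]. Next came netrin receptors of the Unc5 family, with *Unc5a* at 7.40 [5.11–10.9] in the explants, and *Unc5d* at 14.7 [13.5–16.0] and *Unc5c* at 7.45 [7.1–7.82] in the vesicle. The srGAP *Srgap1*, which acts below Robo receptors, came next in the explants at 4.58 [4–5.24]. *Dock1*, a Rac activator that acts below Dcc, was lowest in both, at 0.124 [0.0741–0.195] and 0.124 [0.103–0.148], followed by the actin-binding *Ablim1* at 0.232 [0.151–0.342] and 0.358 [0.288–0.439]. *Rgma*, a ligand of the Dcc relative neogenin, followed in the explants at 0.392 [0.351–0.437] and the Slit-binding glypican *Gpc1* in the vesicle at 0.451 [0.396–0.512].

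The reporters of the explants gave a last division. The 4 embryos at E12.5 carried tdTomato in the *Dbx1* lineage and the 8 at E11.5 carried YFP, so age and lineage cannot be told apart. Cells were divided by whether they had a tdTomato UMI or at least 3 YFP UMIs, and 38 cells with both were left out. Since no background share is known for a lone tdTomato UMI, some cells may stand in the wrong division. In septal glutamatergic-like neurons *Robo3* stood at 64.5 CPM [45.4–88.9] in 49 tdTomato cells, 54.6 [44.8–65.9] in 166 YFP cells and 28.2 [18.4–41.3] in 93 cells with neither, the first and second overlapping. *Robo2* had 1 UMI in the tdTomato cells of this class, or 1.74 CPM [0.0441–9.71], against 13.7 [9–19.9] in the YFP cells. These intervals overlap too. The 2 clusters of this class differ in *Robo2* as given above, and whether their shares differ between the divisions was not tested. *Slit2* in APs was alike, at 43.7 CPM [36.6–51.7] in 193 tdTomato cells and 37.6 [35.5–39.8] in 1945 YFP cells. Other intervals did not overlap, in small groups of cells. In Cajal-Retzius-like neurons *Slit1* had 33.3 CPM [15.2–63.3] in 22 tdTomato cells and 4.79 [1.93–9.87] in 123 YFP cells. *Robo2* had 3.7 [0.0938–20.6] and 36.3 [27.2–47.4] in the same cells. The 2 clusters of this class differ in *Robo2* as well, at 38.9 CPM [30.4–49.0] and 14.6 [6.66–27.6]. Whether their shares differ between the divisions was not tested. *Dcc* in pallial glutamatergic-like neurons had 21.8 [11.3–38.1] in 38 tdTomato cells and 47.2 [40.1–55.3] in 256 YFP cells.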

How the data were processed

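The deposited values are raw counts of UMIs per gene and barcode, made by the authors with Cell Ranger 2.1.1 (explants, kit v2, 10000 cells loaded) and 7.1.0 (vesicle, kit v3.1, 20000 cells loaded) on mm10, per the submitters' processing notes. Whether intronic reads were counted is not given in the sources used here. Barcodes within 3 median absolute deviations of the median mitochondrial share were kept, and doublets (simulated-doublet score over 0.25) removed. Counts were scaled to 10000 per cell, and 2000 variable genes (without members, pathway, cell cycle, sex and reporter genes), 30 principal components, 15 neighbours and Leiden resolution 1.5 gave the clusters (scanpy 1.11.5, igraph 0.11.9, Python 3.11.15). Clusters were named from at least 3 detected markers, by a scoring rule revised after clusters were seen, and classes under 50 cells gave no level. UMIs were summed per class as CPM with exact Poisson intervals, shares have exact Clopper-Pearson intervals, and ratios exact conditional binomial intervals (scipy 1.17.1), all at 95%. A count of 0 was given the limit of 3 counts. The count of per-sample columns left unmapped was 0. Each script for ratios was tested on simulated data. No p-value was computed, since each tissue has 1 sample.

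The members, the pathway list and the markers were chosen with earlier results of these data known. All 8 members are named, with the 3 genes most like each by r and the 3 highest and 3 lowest neuron-to-AP ratios of the pathway list. Some genes that this rule names are not reported here. Alternatives to the doublet filter, cell filters, clustering, weighting, depth, fold, UMI minimum and number of bins were run. Positions come from GENCODE (GRCm38) and promoter windows from RefSeq (GRCm38.p6), which matched 5 of 8 members.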

Additional observations from a re-analysis of the deposited data

Results flagged for a closer look

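The contrast of subpallial over pallial APs differed between the tissues for 2 members. *Robo3* stood at a ratio of 0.355 in the explants and 1.98 in the vesicle, and *Dcc* at 0.313 and 1.04, and in each case the 95% counting intervals of the 2 ratios do not overlap. The difference between tissues was not tested, since each tissue is 1 library. The pallial side held VP-like APs in the vesicle only, so the 2 ratios of a member compare unlike groups. The vesicle's *Robo3* ratio rests on 117 and 71 UMIs and that of the explants on 21 and 52. The pallial-like clusters of the explants were uneven in *Robo3*, at 7.06, 1.31 and 2.08 CPM. The log2 ratio of *Robo3* in the vesicle, 0.99, became −1.17 at a finer clustering resolution, which is the direction of the explants.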

How the results depend on the processing

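Each count of members past 2-fold was recomputed under 12 alternatives. Of 72 values per library, 56 in the explants and 59 in the vesicle stayed within 1.5 times the reported count, and no member counted as higher or lower changed direction. The rest follow, and their cause was not tested except that a 3-fold limit and a minimum of 200 UMIs admit fewer members by construction. In the explants, the members lower in neurons went from 2 to 1 at 3-fold, at 200 UMIs, with doublets kept and with all barcodes. Those higher in subpallial APs went from 2 to 1 at 3-fold, at 200 UMIs, with doublets kept and at resolution 0.8, and those lower there from 2 to 1 at 3-fold and with thinned cells and to 0 at 200 UMIs. Those lower in GABAergic-like neurons went from 2 to 1 at 3-fold, with all barcodes, at resolution 2.5, with another seed and with thinned cells. In the vesicle, members higher in subpallial APs went from 3 to 1 at 3-fold and to 5 with cells weighted equally, and those lower there from 1 to 2 at resolution 2.5 and to 0 with cell cycle genes kept. Members higher in GABAergic neurons went from 1 to 2 at 1.5-fold and 0 at 3-fold. Those lower there went from 1 to 4 at 1.5-fold, to 3 with all barcodes, to 2 at resolution 0.8, and to 0 at 3-fold, with doublets kept, with another seed and with cell cycle genes kept. Of the members' log2 ratios, 183 of 190 in the explants and 86 of 192 in the vesicle stayed within their counting interval, which is narrow in the vesicle. The bin with a member's highest level moved by over 10% of cells in 4 of 30 and 6 of 48 recomputations with 5 or 20 bins, and shares of cells with a UMI moved in 15 and 14 of 16 when 2 UMIs or thinned cells were required. No paired analysis was possible because each tissue has 1 library. With 1 sample per tissue and pooled embryos, no value carries an error between animals.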
